A study of Mus musculus with 198 samples.

Results

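Cerebellum was 1 of 5 tissues in a study of mice carrying a heterozygous DNMT3A knockout, and it contributed 8 of the 198 samples of the series. The 8 libraries were taken by their tissue label, 1 library per animal, and all were whole-genome bisulfite libraries of bulk genomic DNA from C57BL/6J mice. At 8 weeks of age there were 2 animals labelled Heterozygous KO, called hKO here, and 4 wild-type (WT) animals. A further hKO and a further WT animal were 20 weeks old. At 8 weeks, hKO animals 046-2 (male) and 047-1 (female) stood against WT animals 046-1 and 602-2 (male) and 047-2 and 306-1 (female), and both 20-week animals, hKO 006-5 and WT 006-2, were male. The design of the knockout allele is not given in the sources used here, and the labels name no Cre line. Tissue came from littermates, but the labels do not say which animals shared a litter.

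DNMT3A is a de novo DNA methyltransferase that acts on unmethylated cytosines. In neurons it deposits methylation outside CG sites after birth, mostly at cytosines followed by adenine (CA). CG methylation is laid down largely before neurons mature and is copied at cell division by another enzyme, DNMT1. Most cells of the cerebellum are small granule neurons, with Purkinje cells, interneurons and glia in smaller numbers. For every library there was 1 genome-wide value per context, giving the share of CA, CC, CG or CT cytosines called methylated in percent, and 1 value for lambda, an unmethylated phage DNA spiked in to show how often conversion failed. CC is the context with the least methylation, so the CC value of a library served as a second estimate of failed conversion, and "above CC" below means the level minus the CC level of the same library, in percentage points. These global values hold no marker genes, so neither the tissue label nor the genotype could be checked against genes, and in bulk tissue fewer methylated cells cannot be told apart from less methylation per cell.

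The labelled coverage was 0.01 to 0.03 genome equivalents per library. How many cytosines stand behind each percentage is unknown, and the errors given are those between animals. In all 8 libraries CG was the most methylated context, followed by CA, then CT, then CC. CC ranged from 0.243% to 0.290% and lambda from 0.414% to 0.486%, with lambda above CC in 8 of 8 libraries.

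The first comparison asked how cerebellar CA methylation of 8-week hKO animals differs from WT. CA methylation was lower in hKO cerebellum, at roughly 3 in 5 of the WT level as deposited and close to 1 in 2 once the CC level of each library was subtracted. The WT libraries held 1.15% in 046-1, 1.08% in 047-2, 1.07% in 306-1 and 1.12% in 602-2. The hKO libraries held 0.719% in 046-2 and 0.685% in 047-1. Both hKO animals lay below all 4 WT animals, and the gap of 0.350 points between the lowest WT and the highest hKO library was 4.63 times the whole WT range. The mean of the hKO pair was 0.702% ± 0.0242 (SD, n = 2) and that of WT 1.11% ± 0.0357 (SD, n = 4), a difference of -0.403 points (SE 0.0247). By an exact permutation test, two-sided, p was 0.0667, which is 1 in 15 and the smallest that 2 animals against 4 allow, and 0.0933 after Benjamini-Hochberg adjustment over 7 measures. No measure could therefore pass 0.05 at 8 weeks, whatever its size.

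Above CC, the separation was as clear. CA above CC was 0.855 points in WT 046-1, 0.826 in 047-2, 0.801 in 306-1 and 0.880 in 602-2. It was 0.440 points in hKO 046-2 and 0.422 in hKO 047-1, again with no overlap between genotypes. The means of 0.431 ± 0.0124 (SD, n = 2) and 0.841 ± 0.0342 (SD, n = 4) differed by -0.410 points (SE 0.0192, exact permutation p = 0.0667, adjusted 0.0933). The hKO mean was 51.3% of the WT mean, against 63.5% for uncorrected CA and 39.1% with the lambda level subtracted. The percentage retained thus moved with the background chosen by more than its spread between animals, while the difference in points stayed between -0.396 and -0.410. Leaving out any 1 animal kept the percentage above CC between 50.2% and 52.3%.

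**Figure D1:**
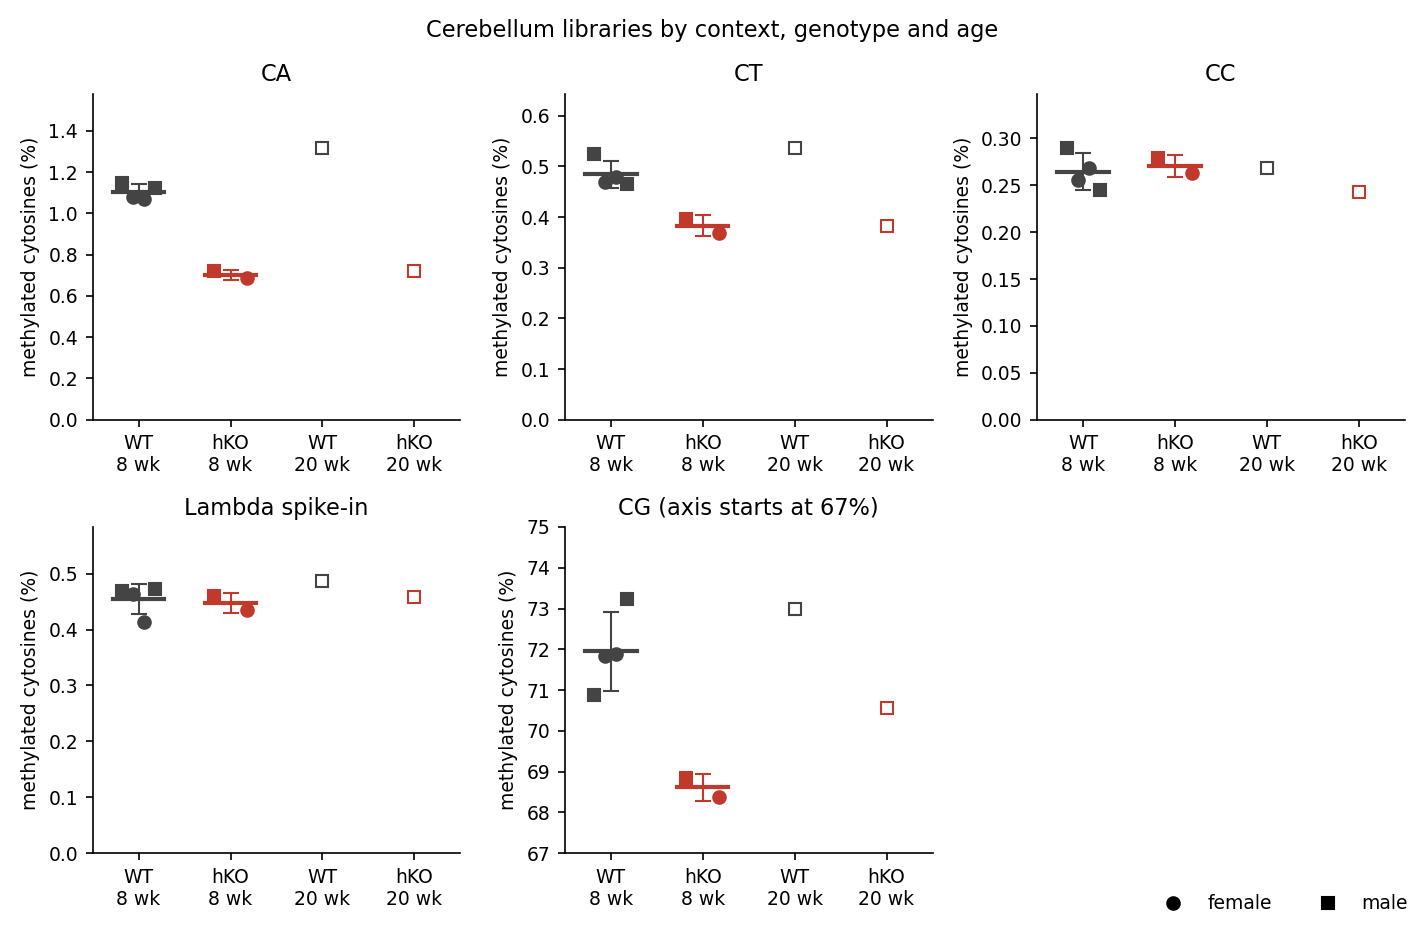
Percentage of cytosines called methylated in each cerebellum library (points, squares for males and circles for females, open at 20 weeks) at CA, CT, CC and CG sites and in the lambda spike-in, with the mean and SD of each 8-week group as a line and bar. The 2 hKO libraries at 8 weeks lie below the 4 WT libraries in CA, CT and CG and overlap them in CC and lambda.

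CT sites, which carry less methylation than CA sites in neurons and are also written by DNMT3A, were less methylated in hKO cerebellum too. CT methylation was 0.524% in WT 046-1, 0.469% in 047-2, 0.479% in 306-1 and 0.466% in 602-2, and 0.397% and 0.368% in hKO 046-2 and 047-1. Neither hKO value reached the lowest WT value. The hKO mean was 0.383% ± 0.0203 (SD, n = 2) against a WT mean of 0.485% ± 0.0268 (SD, n = 4), and the difference was -0.102 points (SE 0.0196, exact permutation p = 0.0667, adjusted 0.0933). All 3 hKO libraries, and 1 of 5 WT libraries, held less CT methylation than lambda, so no percentage of WT can be given for CT above lambda. In points, the difference with lambda subtracted was -0.0945 (exact permutation p = 0.0667, adjusted 0.0889). Above CC, CT was 0.118 points in hKO 046-2 and 0.106 in hKO 047-1. In WT it ran from 0.211 points in 306-1 to 0.234 in 046-1, all above the hKO pair. The hKO mean of 0.112 ± 0.00853 (SD, n = 2) was 50.8% of the WT mean of 0.220 ± 0.0103 (SD, n = 4), with a difference of -0.108 points (SE 0.00792, exact permutation p = 0.0667, adjusted 0.0933).

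The balance between the CA and CT contexts showed no detectable shift with genotype. CT above CC amounted to 26.8% of CA above CC in hKO 046-2 and 25.1% in hKO 047-1. The WT libraries gave 27.4%, 25.9%, 26.4% and 25.2%, and the groups overlapped. The difference of -0.239 points (SE 0.987) was within the spread between animals (exact permutation p = 0.733); this ratio was added after the values had been seen and stands outside the 7 measures.

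**Figure D2:**
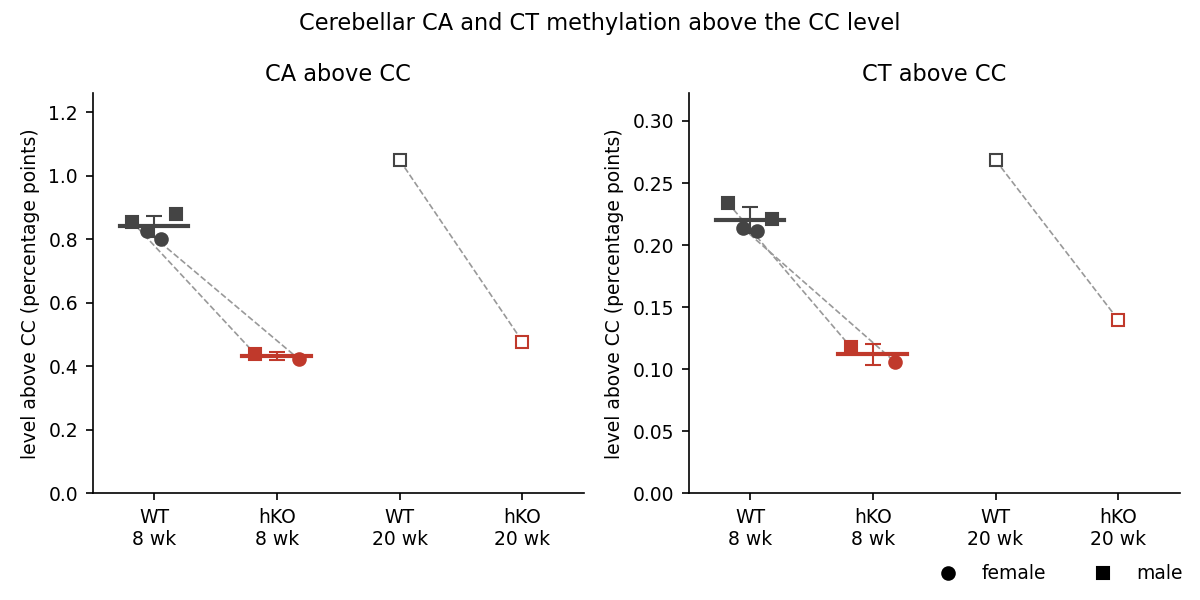
CA (left) and CT (right) methylation above the CC level of the same library, in percentage points, for each cerebellum library, with the mean and SD at 8 weeks; dashed lines join animals whose titles share a prefix. CA above CC lies between 0.801 and 0.880 points in the 8-week WT and at 0.422 and 0.440 in the 8-week hKO.

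The CC and lambda values gave the background of the same libraries. CC was 0.279% and 0.263% in hKO 046-2 and 047-1 and ran from 0.245% in 602-2 to 0.290% in 046-1 among WT. Lambda was 0.460% and 0.434% in the same hKO animals and ran from 0.414% in 306-1 to 0.472% in 602-2 among WT. Both hKO values lay inside the WT range in each case. The differences were 0.00637 points for CC (SE 0.0128, exact permutation p = 0.8, adjusted 0.8) and -0.00730 for lambda (SE 0.0188, exact permutation p = 0.8, adjusted 0.8). CC thus did not separate the genotypes. For lambda the overlap came from WT 306-1 alone, since the other WT libraries at 8 weeks held 0.463% to 0.472%. Without 306-1 the lambda difference was -0.0208 points (exact permutation p = 0.1, the smallest possible, adjusted 0.117). Between animals whose titles share the prefix 046, 047 or 006, hKO minus WT for lambda was -0.00881, -0.0290 and -0.0278 points.

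CG methylation, the highest of the 4 contexts in every cerebellum library, was also lower in hKO cerebellum, by a far smaller proportion. It was 70.9% in WT 046-1, 71.8% in 047-2, 71.9% in 306-1 and 73.2% in 602-2, and 68.9% and 68.4% in hKO 046-2 and 047-1. The genotypes did not overlap, but the gap of 2.03 points was narrower than the WT range, at 0.859 of it. The hKO mean of 68.6% ± 0.328 (SD, n = 2) was 95.4% of the WT mean of 72.0% ± 0.969 (SD, n = 4), and the difference was -3.34 points (SE 0.537, exact permutation p = 0.0667, adjusted 0.0933). In points this was the widest difference of the 4 contexts, and in proportion it was narrower than that at CA or CT sites.

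Animals that share a title prefix were set side by side; prefixes 046, 047 and 006 each held 1 hKO and 1 WT animal of 1 sex, and WT 306-1 and 602-2 had no hKO partner. In the male pair 046-2 and 046-1, hKO minus WT was -0.416 points for CA above CC and -0.116 for CT above CC. In the female pair 047-1 and 047-2 the same differences were -0.404 and -0.108 points. The hKO level of CA above CC was 51.4% of its WT partner in the male pair and 51.1% in the female pair, so the proportions nearly coincided. For CG the differences were -2.03 points in the male pair and -3.44 points in the female pair. At 8 weeks the male libraries held more CA above CC than the female libraries in both genotypes, with 0.867 against 0.814 points as the means of 2 WT animals each, and 0.440 against 0.422 in the single hKO animals. This sex difference was not tested. CG did not sort by sex in WT, where the 2 males held the lowest and the highest value.

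The hKO cerebellum was again the lower one at 20 weeks, an age with a single animal of each genotype and hence no test. CA was 1.32% in WT 006-2 and 0.721% in hKO 006-5, and above CC these became 1.05 and 0.478 points, or 45.5% in hKO relative to WT. CT above CC was 0.268 points in WT and 0.140 in hKO, or 52.0%. CG was 73.0% in WT and 70.6% in hKO, a difference of -2.42 points. Each of these measures therefore had the same direction as at 8 weeks. CC was 0.268% and 0.243%, and lambda 0.486% and 0.458%, in WT and hKO. CT above CC as a share of CA above CC was 25.6% in WT, within the 8-week WT range, and 29.2% in hKO, above both younger hKO animals.

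The older WT cerebellum lay above the younger ones in CA and CT. Its CA above CC exceeded the highest of the 4 WT animals at 8 weeks and was 1.25 times their mean, whereas its CG, 73.0%, and its CC lay within their range. Its lambda level, 0.486%, was also above theirs, by 0.0316 points over the mean, and CA above lambda was 1.28 times the 8-week mean. The older hKO cerebellum also lay above both younger hKO animals, by 0.0468 points of CA above CC over their mean (1.11 times) and by 1.95 points of CG. Its uncorrected CA exceeded their mean by 0.0189 points (1.03 times), and its CC was below both of theirs. Age rests on 1 animal per genotype and was not tested. With both ages in 1 exact permutation test, genotype labels permuted within age (30 assignments, smallest p = 0.0333), the hKO minus WT difference was -0.454 points for CA above CC, -0.114 for CT above CC and -3.09 for CG. These differences, and those in uncorrected CA and CT, had an exact permutation p = 0.0333 and 0.0467 after adjustment, which passed 0.05 and rests on the added pair.

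The other tissues of the same animals showed how cerebellum compares with the rest of the brain. For CA above CC, cerebellum held less than cortex, striatum and hippocampus and more than liver. Among WT animals at 8 weeks the mean was 0.841 points in cerebellum, against 2.06 in cortex, 1.80 in striatum (n = 3), 1.22 in hippocampus and 0.109 in liver. In hKO the order was unchanged, with 0.431 points in cerebellum, 1.04 in cortex, 0.946 in striatum, 0.639 in hippocampus and 0.0332 in liver. Each cerebellum was compared with the other tissue of its own animal, and the signs of the within-animal differences were flipped in an exact two-sided permutation test over both genotypes, adjusted over 4 tissues.

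Cerebellum lay below cortex by 1.02 points on average (SD 0.321) and was lower in 6 of 6 animals. Against hippocampus the mean within-animal difference was -0.321 points (SD 0.0976), lower in 6 of 6. Against liver it was 0.620 points (SD 0.173), higher in 6 of 6. Each gave an exact permutation p = 0.0312, the smallest that 64 sign patterns allow, and 0.0417 adjusted. The means and SDs above pool both genotypes. In WT and hKO the mean differences were -1.22 and -0.609 points against cortex, -0.377 and -0.208 against hippocampus, and 0.731 and 0.398 against liver. Striatum had only 5 animals, because 1 WT striatum repeats its lambda value in the CA column; cerebellum was lower by 0.788 points in 5 of 5 (exact permutation p = 0.0625, the smallest possible, adjusted 0.0625). Leaving out any 1 animal takes these designs to 5 animals or fewer, which cannot pass, and the differences then ran from -1.11 to -0.962 for cortex, -0.353 to -0.300 for hippocampus and 0.593 to 0.667 for liver.

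**Figure D3:**
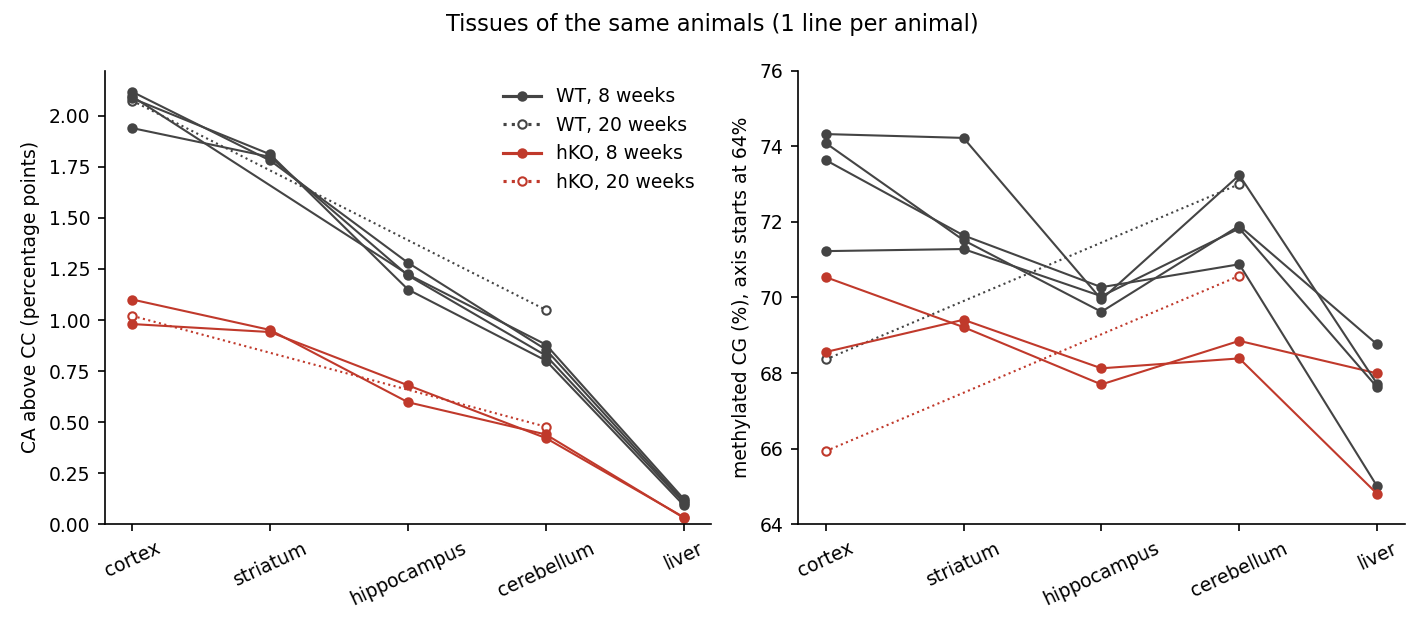
CA methylation above CC in percentage points (left) and CG methylation in percent (right) in the tissues of each animal, 1 line per animal, solid at 8 weeks and dotted with open points at 20 weeks. Cerebellum is below cortex, striatum and hippocampus of its own animal in CA above CC in every 8-week animal with both values, whereas its CG level is above that of hippocampus and liver.

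The genotype difference in points was smaller in cerebellum than in the other brain tissues. In CA above CC, hKO minus WT was -0.410 points in cerebellum, -1.02 in cortex, -0.850 in striatum and -0.579 in hippocampus. In liver, where the WT level itself was 0.109 points, it was -0.0759. The within-animal contrast put the cerebellar difference 0.609 points nearer to 0 than that of cortex (SE 0.0637) and 0.169 points nearer than that of hippocampus (SE 0.0538), and the contrast with liver was -0.334 points (SE 0.0148), further from 0 in cerebellum. Each gave an exact permutation p = 0.0667, the smallest possible, and 0.0889 adjusted over 4 tissues. Against striatum the contrast was 0.454 points (exact permutation p = 0.1, the smallest possible, adjusted 0.1). No contrast in points could pass in this design.

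In proportion, where the cerebellar value lay among the brain tissues depended on the background, and with CC subtracted the 4 values lay close together. CA above CC in hKO was 50.5% of WT in cortex, 52.7% in striatum, 52.5% in hippocampus and 51.3% in cerebellum. With 1 animal left out the ranges were 47.6% to 53.4%, 52.4% to 53.0%, 49.1% to 55.9% and 50.2% to 52.3%. Cerebellum thus could not be ranked against cortex or hippocampus. Liver had 30.4%, from a level close to CC. CT above CC gave 49.3%, 52.0%, 52.1% and 50.8% for the 4 brain tissues in the same order. Uncorrected, the CA percentages had spread from 55.9% in cortex to 63.5% in cerebellum, the highest of the 4. Hippocampus then ran from 57.8% to 62.9% and cerebellum from 62.0% to 65.0% with 1 animal left out. With lambda subtracted cerebellum was the lowest, at 39.1%, against 43.1% in cortex, 45.1% in striatum and 42.3% in hippocampus. With 1 animal left out, hippocampus then ran from 38.1% to 46.5% and cerebellum from 38.5% to 39.8%. The cortex value above lambda rests on the 7 cortex libraries with a lambda value, whereas the other backgrounds used all 13.

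**Figure D4:**
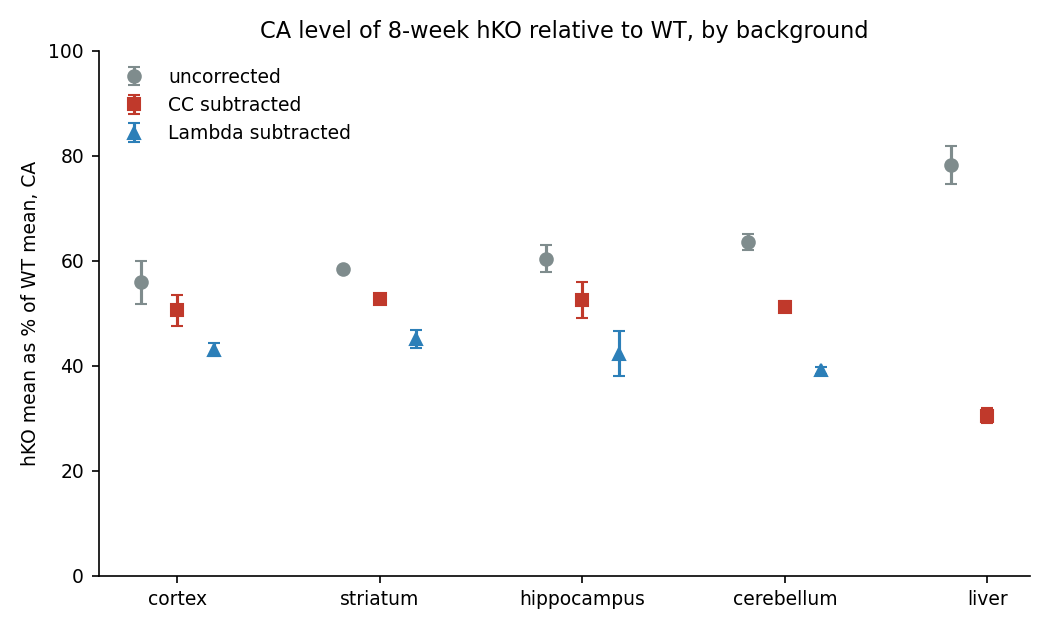
Mean CA level of 8-week hKO animals as a percentage of the WT mean in each tissue, uncorrected (grey circles), with CC subtracted (red squares) and with lambda subtracted (blue triangles); bars span the values with any 1 animal left out. The 4 brain tissues lie between 50.5% and 52.7% with CC subtracted, and cerebellum goes from 63.5% uncorrected to 39.1% with lambda subtracted. Liver has no point for lambda because its levels fall below lambda, and the cortex point for lambda uses only 7 of the 13 cortex libraries.

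The same comparison was made within animals by expressing the cerebellar level of CA above CC as a percentage of the level in another tissue. Relative to cortex it was 40.4%, 42.6%, 38.4% and 42.0% in WT 046-1, 047-2, 306-1 and 602-2, and 39.96% and 43.1% in hKO 046-2 and 047-1. The hKO animals fell on both sides of the WT mean. The difference was 0.648 percentage points (SE 1.81, exact permutation p = 0.667, adjusted 0.8). Relative to striatum the means were 45.5% in hKO and 46.1% in WT, a difference of -0.540 (SE 1.29, exact permutation p = 0.8, adjusted 0.8). Relative to hippocampus they were 67.8% and 69.1%, a difference of -1.26 (SE 5.88, exact permutation p = 0.8, adjusted 0.8). The hippocampal ratio was the least precise, since hKO 046-2 stood at 73.6% and hKO 047-1 at 62.0%, above and below all WT animals. These tests did not detect a difference in proportion above CC, and with 2 hKO animals they do not show that proportions are equal. With uncorrected CA the hKO ratio was higher for each tissue, by 6.38 percentage points for cortex (exact permutation p = 0.0667, the smallest possible, adjusted 0.2), 4.83 for striatum and 4.00 for hippocampus.

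**Figure D5:**
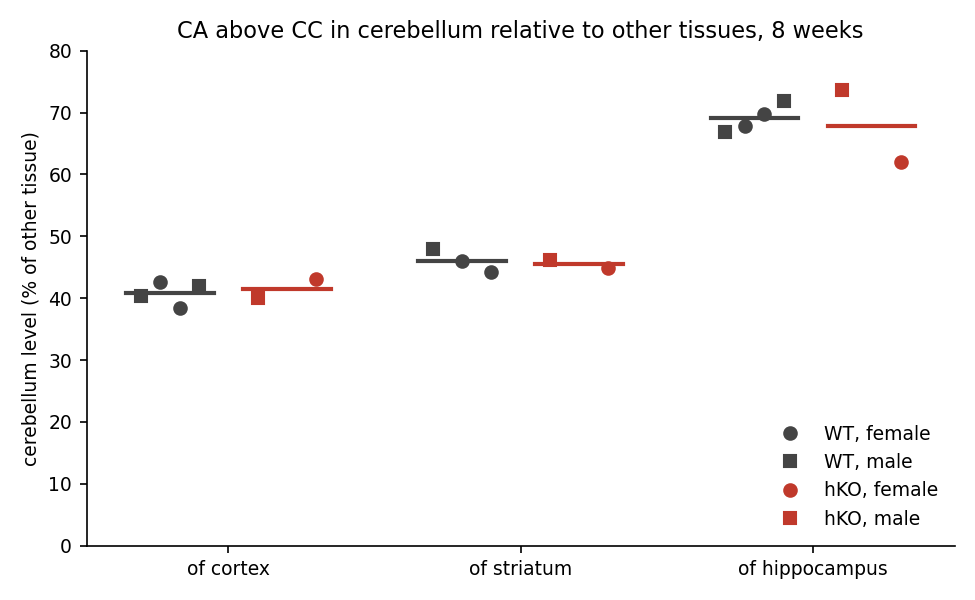
CA methylation above CC in cerebellum as a percentage of the level in cortex, striatum or hippocampus of the same 8-week animal; points are animals and lines are group means. WT and hKO means lie close together for cortex (40.9% and 41.5%), striatum (46.1% and 45.5%) and hippocampus (69.1% and 67.8%), with the widest spread between the 2 hKO animals for hippocampus.

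At 20 weeks, where the only other tissue was cortex, the ratio was higher. Cerebellar CA above CC was 50.6% of the cortical level in WT 006-2 and 46.8% in hKO 006-5, both above every 8-week animal. With cortex libraries averaged per animal, the WT cortical level of 2.07 points was within the 8-week WT range of 1.94 to 2.12. The WT cerebellar level of 1.05 was outside its own 8-week range. In hKO the cortical level of 1.02 points also lay between those of the 8-week animals, 0.980 and 1.10. This depended on the cortex libraries used. In the library with the lowest CC of each 8-week animal, cortex ran from 1.89 to 1.96 points in WT. It was 0.983 and 0.980 in hKO, so both 20-week cortex levels lay above those of their genotype.

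CG methylation placed cerebellum differently among the tissues. Cerebellum held more CG methylation than hippocampus in 6 of 6 animals, by 1.56 points (SD 1.12), and more than liver in 6 of 6, by 3.86 points (SD 1.82). Both gave an exact permutation p = 0.0312, the smallest possible, but 0.0625 after adjustment over 4 tissues, and so did not pass. Against striatum the difference was -0.368 points (SD 0.687, exact permutation p = 0.25, adjusted 0.25). Cerebellum thus held less CA above CC but more CG methylation than hippocampus in each of the 6 animals.

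Against cortex, the CG comparison depended on which cortex libraries were used. With all cortex libraries averaged per animal, cerebellum minus cortex was -1.21 points (SD 1.26, lower in 5 of 6 animals, exact permutation p = 0.0938, adjusted 0.125). Some animals had 2 or 3 distinct cortex libraries, and these differed widely. For example, cortex of WT 306-1 ran from 71.2% to 76.2% in CG and from 0.313% to 0.414% in CC. CC ran from 0.272% to 0.425% over the 13 cortex libraries and reached at most 0.290% in cerebellum. With the cortex library of lowest CC in each animal, a choice made after these values had been seen, cerebellum was 0.562 points higher (exact permutation p = 0.0625, adjusted 0.0833), lower in 1 of 6 animals. At 20 weeks cerebellum held 4.64 points more CG methylation than cortex in WT 006-2 and 4.64 in hKO 006-5. By contrast, CA above CC remained lower in cerebellum than in cortex in 6 of 6 animals with the lowest-CC libraries (-0.909 points, exact permutation p = 0.0312, adjusted 0.0417).

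The genotype difference in CG did not differ detectably between cerebellum and the other tissues. It was -3.34 points in cerebellum, -3.77 in cortex, -2.85 in striatum, -2.06 in hippocampus and -0.875 in liver. The within-animal contrasts were 0.430 points against cortex (SE 1.06), -0.488 against striatum (SE 0.511), -1.28 against hippocampus (SE 0.713) and -2.46 against liver (SE 1.50). Their exact permutation p-values were p = 0.733, 0.467, 0.267 and 0.2, the smallest adjusted value being 0.533. The cortex values average the libraries of each animal, and the contrast against cortex depended on the libraries used. It was -0.334 points with the lowest-CC library of each animal (exact permutation p = 0.467) and 1.84 with the first-numbered library (exact permutation p = 0.4).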

How the data were processed

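Bisulfite-converted DNA was sequenced shallowly, 1 cerebellum library per animal. The submitters' processing notes name the mm9 build and the tools BS-Seeker2 and bedtools, without versions. The authors deposited 1 fraction per library and context, the methylated share of cytosines; filters on cytosines and any correction for failed conversion are not given in the sources used here. The fractions were multiplied by 100. Groups came from the labels. The 98 culture libraries of the same table and the deeply sequenced cortex table were not used. Libraries of 1 tissue and animal were averaged after those equal within 1e-09 were counted once (16 cortex libraries became 13). A CA value equal to lambda in 1 WT striatum was treated as missing. Cortex lambda values of 0 were treated as missing, and 7 of the 13 cortex libraries had a value above 0.

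Differences in means were tested by enumeration of all label assignments or sign patterns, two-sided by absolute difference, in Python 3.11.15 with numpy 2.4.6 and pandas 2.3.3; the functions were tested on simulated data. Benjamini-Hochberg adjustment ran over 7 measures at 8 weeks, over 4 tissues per measure and over 3 tissues for ratios. No gene is named, since these values hold none. The p-values take the animal as the unit, with 1 cerebellum library each and cortex libraries averaged per animal. Many of them are the smallest that the number of animals allows, and so do not grade the size of a difference. The experiment, tests and alternatives were chosen with earlier results of these data known. Alternatives were other backgrounds, scales and medians, each animal or sex, both ages, title prefix as a block, and other cortex libraries.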

Additional observations from a re-analysis of the deposited data

Results flagged for a closer look

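The lambda level of WT cerebellum 306-1, 0.414%, lay far below the other 3 WT libraries at 8 weeks; its gap to the nearest of them was 0.851 of the range of the group. About 1 in 20 such groups would be marked by chance, and 19 groups were examined. Its CA, CC, CT and CG levels were not marked in this way. Cortex, striatum and liver of 306-1 also held the lowest mean lambda level among the 8-week WT animals, at 0.410%, 0.406% and 0.421%, as did its hippocampus at 0.425%.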

How the results depend on the processing

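At 8 weeks the hKO level was lower for CA, CT and CG, uncorrected or above CC, in every alternative run. These were single sexes, medians, log scales, other backgrounds, genotype permuted within sex and each animal left out; with 1 animal left out the differences were -0.423 to -0.397 points for CA above CC and -3.70 to -2.91 for CG. With both ages the differences that then passed were -0.456 points for CA, -3.09 for CG, -0.116 for CT, -0.454 for CA above CC and -0.114 for CT above CC. The CC difference changed sign with both ages (-0.00222) and ran from -0.00195 to 0.0148 with 1 animal left out; lambda ran from -0.0208 to 0.00564. The hKO percentage of WT for CA moved from 63.5% to 51.3% with CC subtracted or with (x - CC) / (1 - CC), and to 39.1% with lambda subtracted. The title prefix was used as a block, although the labels do not say what it marks: the difference in CA above CC was then -0.410 points (exact permutation p = 0.5, the smallest possible), that in CC -0.00165, and the hippocampal ratio 0.499 percentage points.

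CA above CC of cerebellum against cortex, hippocampus and liver kept its sign but lost the call in subsets, which have too few animals to pass: -1.22, -0.377 and 0.731 points in WT alone, -1.05, -0.309 and 0.635 in males, -0.985, -0.333 and 0.605 in females. With medians over all 6 animals the values were -1.16, -0.346 and 0.714 (exact permutation p = 0.125, adjusted 0.167). Several sign patterns share 1 median, so 0.125 is the smallest p this setting allows and it could not pass either. With 1 animal left out it was -1.11 to -0.962, -0.353 to -0.300 and 0.593 to 0.667. For CG, cerebellum minus cortex became 0.249 points with the 20-week pair and 0.562 with the lowest-CC cortex libraries, and its genotype contrast -0.334 with the latter, 1.84 with the first-numbered cortex libraries and -0.328 to 1.19 with 1 animal left out. Genotype differences in the ratio to cortex, striatum and hippocampus ran from -0.904 to 2.20, -1.45 to 0.440 and -7.03 to 4.51 with 1 animal left out, and that for cortex was 3.09 with the first-numbered libraries. With uncorrected CA they were 6.38 for cortex, 4.83 for striatum and 4.00 for hippocampus. CT as a share of CA ran from -1.11 to 0.633. With the repeated striatum CA value as deposited, cerebellum minus striatum was -0.539 points and its genotype contrast 0.0362. The calls lost in subsets and with medians could not have passed, and the cause of the other changes was not tested.

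Depth is unknown for each library, and 2 hKO animals limit every test of genotype. A level close to CC or lambda, as for CT in hKO cerebellum and CA in liver, rests on the choice of background.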
